A study of Mus musculus with 27 samples.

Results

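The CpG-poor stretches of the mouse autosomes were examined as the windows longer than 16 kb in a genome-wide table of CpG methylation. Each window of that table is named as holding 100 CpGs, so a long window was taken as one in which CpGs lie far apart. Neither the CpGs nor any assembly gaps inside the windows were counted. Of the 422141 windows on chromosomes 1 to 19 with a value in all 27 libraries, 948 (0.225%) spanned more than 16000 bp, and these are the members described here. They were chosen by length and position alone, with no methylation value. A further 266 autosomal windows over the limit lacked a value in at least 1 library and were left out, which is 21.9% of the long windows against 1.48% of all autosomal windows.

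The values are percentages from whole-genome bisulfite sequencing, in which unmethylated cytosines are converted and methylated cytosines are read as such. Mouse embryonic stem cells kept in 2i/Lif, a serum-free medium that holds them in the naive state, were taken on D0, and cells turned towards epiblast-like cells (EpiLC) were taken on D1 and D2. The TET_KO line lacks all of Tet1, Tet2 and Tet3, and TET_WT is the parental wild-type line from which it came. The DNMT_WT line is the wild-type parent of another knockout, which was not analysed here, so it serves as a second wild-type line. Each line and day had 3 replicates, and the labels do not say whether these were separate cultures, so every p-value measures only the spread between the libraries. The labels name a single line for each genotype, so a difference between lines cannot be told apart from a difference between clones. Methylation percentages show neither the cell type nor the deletions, and neither was checked.

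DNA methylation at CpGs is laid down anew by DNMT3A and DNMT3B and copied after replication by DNMT1. TET enzymes oxidise the methyl group, which leads to its removal. Naive stem cells in 2i/Lif carry little methylation, and the genome gains it as the cells leave the naive state. Bisulfite sequencing reads the methyl mark and its first oxidation product, 5-hydroxymethylcytosine, as 1 signal.

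Gene bodies were overlapped by a smaller share of the members than of the other autosomal windows. The median length of the members was 17024 bp, against 4949 bp for all complete autosomal windows. The members spanned 22.6 Mb of 2347 Mb. The length was at most 20 kb in 780 members, over 20 kb in 168 and over 50 kb in 72. A gene body was overlapped by 390 members (41.1%), against 63.5% of the other autosomal windows, and a protein-coding gene body by 256 (27%), against 52.4%. In windows of 12000 to 16000 bp the share overlapping a gene body was lower still, at 35.7%. A low share was thus not particular to the members. The 692 members outside protein-coding genes lay at a median of 343208 bp from the nearest one, and 490 of them were more than 100 kb away. These distances were not compared with those of other windows. Chromosome 4 held 125 members (13.2%) and chromosome 1 held 119 (12.6%), whereas chromosome 19 held 10. Another member was the direct neighbour of 112 members, which formed 46 runs of up to 9. Members make up 0.225% of the complete autosomal windows, so the members were not evenly scattered.

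Of 47038 annotated autosomal genes, 457 (0.972%) overlapped a member, and several families of tandem clusters were over that share. Among the families listed for this purpose, 52 of 1420 olfactory receptor genes and 34 of 623 vomeronasal receptor genes, which encode receptors for odours and pheromones, overlapped a member. So did 14 of 87 long genes of neuronal adhesion and synapses and 6 of the 11 Skint genes, whose products act in the upkeep of T cells of the skin. A long gene spans more windows, so the share of the long neuronal genes cannot be set against that over genes of any length. Gene length was not accounted for in any of the lists. Members also overlapped 6 of 46 genes of major urinary and lipocalin proteins and 3 of 26 of the prolactin family. The same held for 3 of 40 bitter taste receptor genes and 3 of 83 defensin genes. A single gene did in the lists of cytochrome P450 and glucuronosyltransferase genes (1 of 133, 0.752%), natural killer cell receptor genes (1 of 36, 2.78%) and Mrgpr sensory receptor genes (1 of 32, 3.12%). Single genes cannot set these 3 lists apart from the share over all genes. None of 39 Hox genes, 79 ribosomal protein genes or 25 genes of naive pluripotency overlapped one, which lists of these sizes cannot set apart from the share over all genes.

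Bases of the members could be read only where a RefSeq promoter of GRCm38.p6 (250 bases before to 50 after the start the promoter table uses) fell wholly inside a member, which held for 104 promoters in 91 members. They serve here to check the label, since the CpGs of whole windows were not counted here. The 104 promoters held a mean of 1.95 CpGs and a median of 1.0, against a mean of 12.6 and a median of 7.0 over all 31396 autosomal promoters of the same length. At most 2 CpGs were found in 94 of them (90.4%), against 23.0% of all autosomal promoters, and 32 (30.8%) held none, against 5.25%. In members of up to 20000 bp the mean was 0.931 over 72 promoters, and in longer members it was 4.25 over 32. The median was 1.0 in both, and 24 of the 32 held at most 2 CpGs, while 5 held at least 8 and carried the higher mean. Against all autosomal promoters, these promoters thus go with the label, apart from a few dense ones, mostly in the longer members. They do not set the members apart from somewhat shorter windows. The 770 promoters in windows of 12000 to 16000 bp held a mean of 1.16 CpGs, and 34.7% held none. That mean is under the 1.95 of all members and over the 0.931 of members of up to 20000 bp. The motif TATAAA, searched on both strands, occurred in 36 of the 104 (34.6%) against 13.6% of all autosomal promoters. The mean GC content of the 104 was 38.8% against 54.0%. In windows of 12000 to 16000 bp the values were similar, with the motif in 38.4% of promoters and a mean GC content of 38.3%. A match is only a run of letters and was not taken as a site.

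The promoters below are printed because they span the range from CpG-free to CpG-dense and belong to members described further on. They run 5′ to 3′ on the gene's strand, with each CpG in capitals. The promoter of Olfr243, an odorant receptor gene (chr7:103716346-103716645, plus strand), holds 0 CpGs, that of Skint11 (chr4:114163134-114163433, plus strand) holds 1 and that of the odorant receptor gene Olfr293 (chr7:86663414-86663713, plus strand) holds 2. Of the denser ones, the promoter of Srp54c, a gene for a subunit of the signal recognition particle (chr12:55230127-55230426, plus strand), holds 21 CpGs and lies 259 bases further in than the outer start of the gene would place it, and that of Gm3255 (chr17:14993128-14993427, minus strand) holds 33.
Olfr243: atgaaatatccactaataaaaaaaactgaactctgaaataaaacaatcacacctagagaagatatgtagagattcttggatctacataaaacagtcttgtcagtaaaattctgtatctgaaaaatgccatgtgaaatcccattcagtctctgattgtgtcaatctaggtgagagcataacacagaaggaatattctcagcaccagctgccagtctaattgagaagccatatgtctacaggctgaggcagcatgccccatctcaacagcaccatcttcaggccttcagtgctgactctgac
Skint11: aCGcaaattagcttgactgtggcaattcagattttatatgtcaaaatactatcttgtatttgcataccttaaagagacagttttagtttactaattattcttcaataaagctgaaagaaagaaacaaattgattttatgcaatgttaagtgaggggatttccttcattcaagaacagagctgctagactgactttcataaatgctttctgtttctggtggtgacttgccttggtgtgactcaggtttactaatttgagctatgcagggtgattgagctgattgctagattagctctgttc
Olfr293: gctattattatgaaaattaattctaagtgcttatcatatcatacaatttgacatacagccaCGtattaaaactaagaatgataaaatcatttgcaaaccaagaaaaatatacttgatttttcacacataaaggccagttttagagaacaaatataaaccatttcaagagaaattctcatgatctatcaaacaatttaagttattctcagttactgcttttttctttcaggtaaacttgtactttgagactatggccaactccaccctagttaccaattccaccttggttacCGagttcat
Srp54c: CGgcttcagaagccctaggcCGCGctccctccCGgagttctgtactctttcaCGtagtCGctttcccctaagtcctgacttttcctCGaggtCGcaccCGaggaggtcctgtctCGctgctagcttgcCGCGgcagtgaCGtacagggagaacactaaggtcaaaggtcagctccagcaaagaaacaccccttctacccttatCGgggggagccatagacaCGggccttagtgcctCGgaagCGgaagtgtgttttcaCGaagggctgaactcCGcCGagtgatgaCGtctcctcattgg
Gm3255: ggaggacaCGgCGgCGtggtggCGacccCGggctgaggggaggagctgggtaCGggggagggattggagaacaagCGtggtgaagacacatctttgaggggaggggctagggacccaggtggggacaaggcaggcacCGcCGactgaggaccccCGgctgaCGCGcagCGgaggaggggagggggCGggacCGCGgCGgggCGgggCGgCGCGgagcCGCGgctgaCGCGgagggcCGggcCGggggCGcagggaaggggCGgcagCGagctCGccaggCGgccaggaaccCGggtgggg

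The sequences differ as the counts say. The first 3 promoters are rich in A and T with almost no capitals, and the last 2 are dotted with them over most of their length. Srp54c and Gm3255 each start inside a member longer than 20 kb, so a long window can hold a CpG-dense promoter.

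Methylation of the members was low in the naive cells and rose over both days in every line. In TET_WT the mean over the 948 members was 17.5, 18.4 and 18% in the D0 libraries, 24.4, 22.0 and 24.1% on D1, and 35.4, 40.5 and 34.9% on D2. The days did not overlap, and replicate 2 stood apart as the lowest on D1 and the highest on D2. In DNMT_WT the members were nearly unmethylated on D0, with 1.59, 1.65 and 1.67%. They reached 5.84, 5.99 and 6.18% on D1 and 32.2, 31.9 and 32.4% on D2. In TET_KO the mean was already 40.6, 40.4 and 42.5% on D0, and then 47.6, 47.5 and 48.1% on D1 and 63.9, 65.1 and 62.1% on D2. The knockout thus began near the level that TET_WT reached on D2, with all its D0 libraries above TET_WT replicates 1 and 3 of D2 and replicate 2, at 40.5%, within their range.

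**Figure D1:**
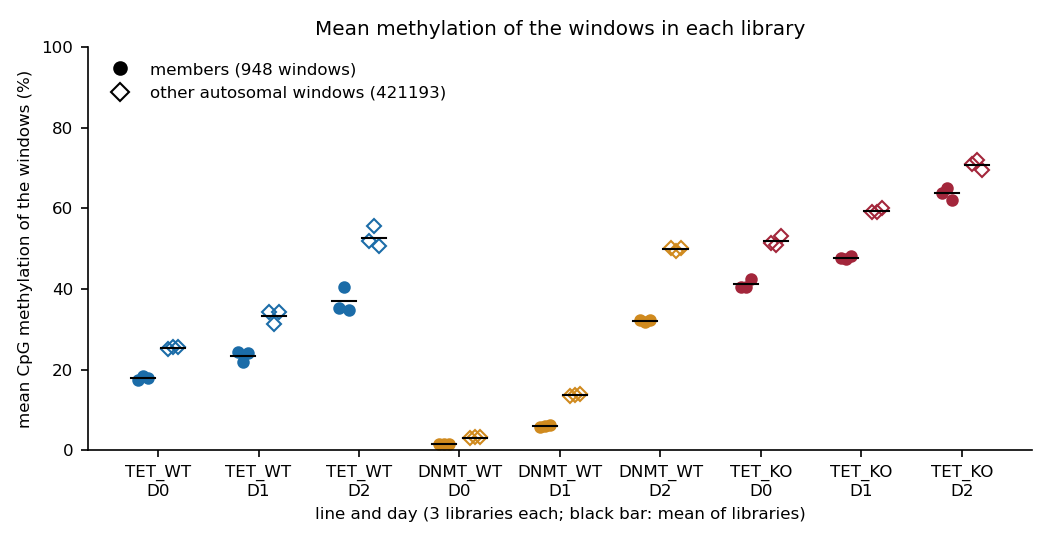
Mean CpG methylation in percent (vertical axis) for each line and day (horizontal axis); filled circles are the members and open diamonds the other autosomal windows in the same libraries, with black bars at the mean of 3 libraries. The members lie below the other windows in all 9 groups, with 36.9% against 52.7% in TET_WT on D2 and 63.7% against 70.9% in TET_KO on D2.

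The members stayed below the rest of the autosomes throughout. The 421193 other autosomal windows averaged 25.4, 33.2 and 52.7% on the 3 days in TET_WT. They averaged 3.17, 13.8 and 49.9% in DNMT_WT and 51.8, 59.4 and 70.9% in TET_KO. The member mean less the mean of these windows was -7.44, -9.73 and -15.8 points on D0, D1 and D2 in TET_WT. In TET_KO it was -10.7, -11.6 and -7.15 points on the same days, so the distance had shrunk by D2 in the knockout and had grown in TET_WT. The 1733 windows that flank the members, with a median length of 10107 bp, lay in between, with 43.5% ± 2.92 (SD, n = 3) in TET_WT on D2 and 68.9% ± 1.36 (SD, n = 3) in TET_KO on D2.

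Few members became highly methylated in the wild-type lines. A level of at least 50% on D2 was reached by 159 members (16.8%) in TET_WT and 109 (11.5%) in DNMT_WT, against 63.3% and 57.2% of the other autosomal windows. In TET_KO it was reached by 844 members (89.0%), against 89.8% of the others. Windows of 12000 to 16000 bp were similar, with 15.0% in TET_WT, 8.50% in DNMT_WT and 94.7% in TET_KO. On D0, 682 members (71.9%) had under 20% in TET_WT and 24 (2.53%) had in TET_KO.

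**Figure D2:**
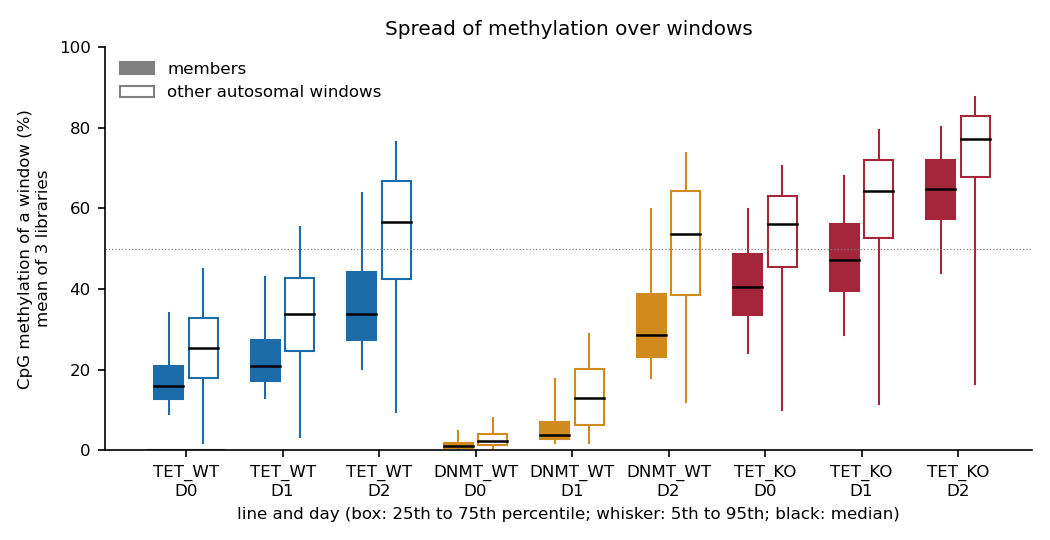
Methylation of single windows in percent (vertical axis, mean of 3 libraries) by line and day, with boxes from the 25th to the 75th percentile, whiskers from the 5th to the 95th and black lines at the median; filled boxes are the members and open boxes the other autosomal windows. The members' median in TET_WT on D2 is 33.9% against 56.5% for the other windows, and in TET_KO on D2 it is 64.9% against 77.1%.

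From the class of 4000 to 6000 bp on, methylation on D2 fell with length to a low point inside the members' range. The shortest windows, CpG-dense stretches of up to 1000 bp, were lower still, at 2.58% in TET_WT on D2. Windows of 4000 to 6000 bp averaged 60.6% ± 2.65 (SD, n = 3) in TET_WT on D2, those over 14000 and up to 16000 bp averaged 35.4% ± 3.21, and the 654 members of up to 18000 bp averaged 34.7% ± 3.06. In TET_KO on D2 the lowest class over 3 kb was that of 18 to 20 kb, at 61.4% ± 1.43. The classes on either side of 16 kb lay close in TET_WT on D2, at 35.4 and 34.7%, and no step stood at the limit itself. They share their libraries, so the SDs do not measure the difference between them. The members just over it were 2 of 16001 bp (chr4:68455243-68471243 with 26.8% and chr15:28891747-28907747 with 26.2% in TET_WT on D2) and 1 of 16003 bp (chr19:19263446-19279448, 40.9%). Just under it were 2 windows of 16000 bp (chr15:49682244-49698243, 41.2%, and chr17:82118637-82134636, 51.3%) and 1 of 15998 bp (chr11:12696096-12712093, 35.4%).

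Above 20 kb the level rose again. The 69 members over 20 and up to 30 kb averaged 40.7% ± 2.42 (SD, n = 3) in TET_WT on D2, the 27 over 30 and up to 50 kb averaged 47.4% ± 3.56, and the 72 over 50 kb averaged 52.6% ± 3.56. In TET_KO on D2 the 72 longest averaged 70.9% ± 0.875, the same value as the mean of the other autosomal windows there. Of these 72, 38 were no longer than 65 kb and 30 overlapped a protein-coding gene. The very long members therefore differ in level from the bulk. Whether they are CpG-poor throughout or span assembly gaps was not tested.

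**Figure D3:**
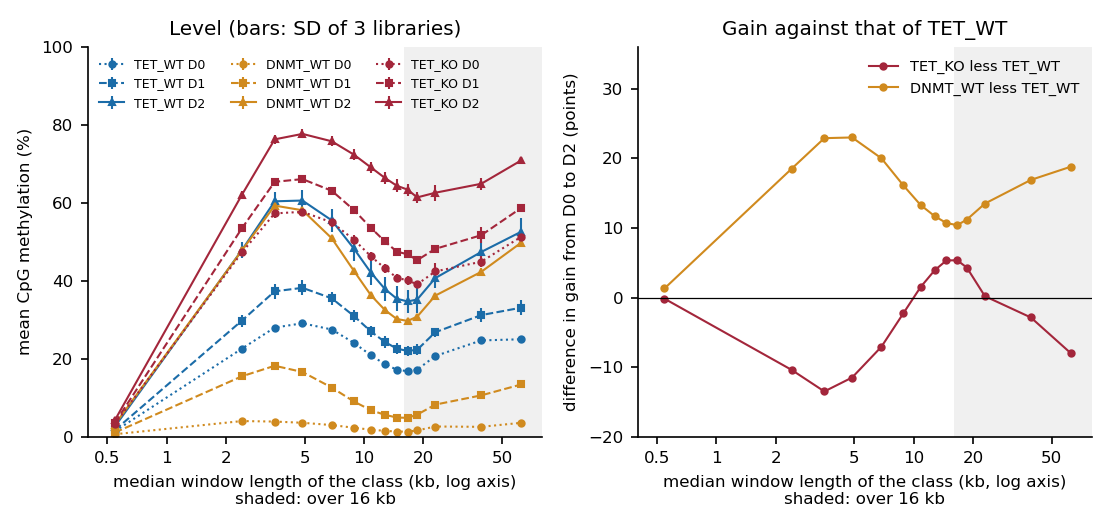
Mean methylation in percent with the SD of 3 libraries (left), and the difference in gain from D0 to D2 from that of TET_WT in points (right), against the median length of each class of autosomal windows on a log axis; the shaded range is over 16 kb. From the 4 to 6 kb class on, TET_WT on D2 falls to 34.7% at 16 to 18 kb and rises beyond 20 kb, TET_KO on D2 is lowest at 18 to 20 kb with 61.4%, and the TET_KO curve at right is above 0 from 10 to 30 kb, with 5.35 points at 16 to 18 kb and -8.01 points over 50 kb.

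The first comparison asks how the members gained methylation as cells left the naive state. Windows were tested with limma over all 444250 windows of the nuclear chromosomes, and windows were called when the p adjusted by Benjamini-Hochberg was under 0.05 and the groups differed by at least 10 percentage points. From D0 to D1 the member mean rose by 5.56 ± 0.795 points (SE) in TET_WT and 6.59 ± 0.686 in TET_KO, and by 4.37 ± 0.102 in DNMT_WT. Few members passed 10 points on that first day. In TET_WT 57 members (6.01%) were called higher, against 27.6% of all tested windows. DNMT_WT had 90 (9.49%) against 49.0%, and TET_KO had 70 (7.38%) against 20.1%. The very long members carried much of these counts, since members of up to 30 kb had 3.77% in TET_WT and 5.65% in DNMT_WT, and members over 20 kb had 23.2 and 31.5%. Leaving out replicate 2 of TET_WT on D1 raised the first share to 9.18%, and leaving out replicate 3 of TET_KO on D0 raised the last to 13.2%.

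Most of the gain fell between D1 and D2. The rise of the member mean was then 13.4 ± 1.95 points (SE) in TET_WT, 16 ± 0.897 in TET_KO and 26.2 ± 0.190 in DNMT_WT. Of the members of TET_WT, 660 (69.6%) were called higher, against 88.0% of all tested windows. In DNMT_WT 935 (98.6%) were, against 94.9%, and in TET_KO 873 (92.1%), against 65.8%. The members' share was thus under the background in TET_WT and over it in TET_KO. Windows of 12000 to 16000 bp, with 72.8% in TET_WT and 96.2% in TET_KO, did the same, so this was not particular to the members. The median member rose by 12.5 points in TET_WT and 16.4 in TET_KO, whereas the median tested window rose by 20.4 in the former and 11.6 in the latter. When each library was centred on its median, 462 members were called lower and 1 higher in TET_WT, 687 lower and 4 higher in DNMT_WT, and 24 higher and 9 lower in TET_KO. Counts under such other settings, here and below, come without the share over all tested windows and describe the members alone. The median rise in DNMT_WT was 24.3 points in the members and 39.2 in all tested windows.

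Over the 3 lines, the member mean rose by 5.51 points from D0 to D1 and by 18.5 from D1 to D2. Each had p = 2.50e-04 in an exact two-sided permutation test of days within lines (8000 arrangements), which is the smallest it can give, and p = 4.00e-04 after Benjamini-Hochberg adjustment over 8 such tests. The members rose less than the other autosomal windows, with a difference of -3.14 points on the first step (adjusted exact permutation p = 4.00e-04) and -3.86 on the second (adjusted exact permutation p = 0.0431). The second call was lost whichever replicate number was left out of all groups at once, with fewer arrangements. The exact permutation p was 0.102 without replicate 1 and 0.0926 without replicate 2. It was also lost with the replicate numbers as blocks (exact p = 0.102). The second difference also joins lines that went opposite ways, since members less the others changed by -6.07 ± 0.449 points (SE) in TET_WT but by 4.48 ± 0.273 in TET_KO. In DNMT_WT the other windows rose by 36.2 ± 0.292 points on this step, against 26.2 for the members. A single line offers 3 libraries against 3, for which no exact p can go below 0.1, and each of these changes had that value.

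Single members are named here from those called without overlap of the libraries, by the size of the difference. In TET_WT the largest such rise from D1 to D2 was at chr4:130391093-130518870, a window of 127778 bp with no gene, next to Snrnp40. Its libraries read 35.3, 28.5 and 27.9% on D1 and 65.7, 70.7 and 62.1% on D2. The difference was 35.6 ± 2.55 points (SE, limma adjusted p = 8.82e-13). In DNMT_WT the largest was at chr11:27884367-27928072, with no gene, from 9.56 to 62.6% (53.0 ± 2.98 points, limma adjusted p = 3.20e-16). In TET_KO it was at chr8:6585543-6601894, 16352 bp long, with no gene and 1480256 bp from the nearest protein-coding gene, Slc10a2, from 41.9 to 73.0% (31.1 ± 2.35 points, limma adjusted p = 3.64e-11). The top 5 rises of TET_WT and of TET_KO included members in genes too, among them Drc1, needed for the motility of cilia, and Cct6a, a chaperonin subunit, in TET_WT, and Grm5, a glutamate receptor, in TET_KO.

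The second comparison is the loss of the 3 TET enzymes. Nearly all members were higher in TET_KO than in TET_WT on each day. On D0 917 members (96.7%) were called higher, on D1 923 (97.4%) and on D2 913 (96.3%). The background was 92.9, 92.6 and 84.3% of all tested windows. Of the windows of 12000 to 16000 bp, 99.2, 99.2 and 98.7% were called higher on these days. After centring on library medians, members went the other way on D0 (3 higher, 311 lower) and D1 (7 higher, 254 lower) but stayed mostly higher on D2 (336 higher, 48 lower). Without centring, the median member differed by 23.4, 24.2 and 28.5 points on D0, D1 and D2, and the median tested window by 27.5, 27.4 and 17.9. The median member thus differed less between the lines than the median tested window on D0 and D1, and more on D2.

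The mean difference of the members was 23.2 ± 0.710 points (SE) on D0, 24.2 ± 0.774 on D1 and 26.8 ± 2.00 on D2, against 26.4 ± 0.672, 26.1 ± 1.04 and 18.1 ± 1.64 for the other autosomal windows. Over the 3 days the member mean was 24.7 points higher in TET_KO (exact two-sided permutation p = 2.50e-04, the smallest possible, and 4.00e-04 after adjustment over 8 tests). The excess over the other windows, averaged over the days, was 1.16 points and did not pass (exact permutation p = 0.433), as its sign turned between days, with -3.27, -1.90 and 8.64 points.

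**Figure D4:**
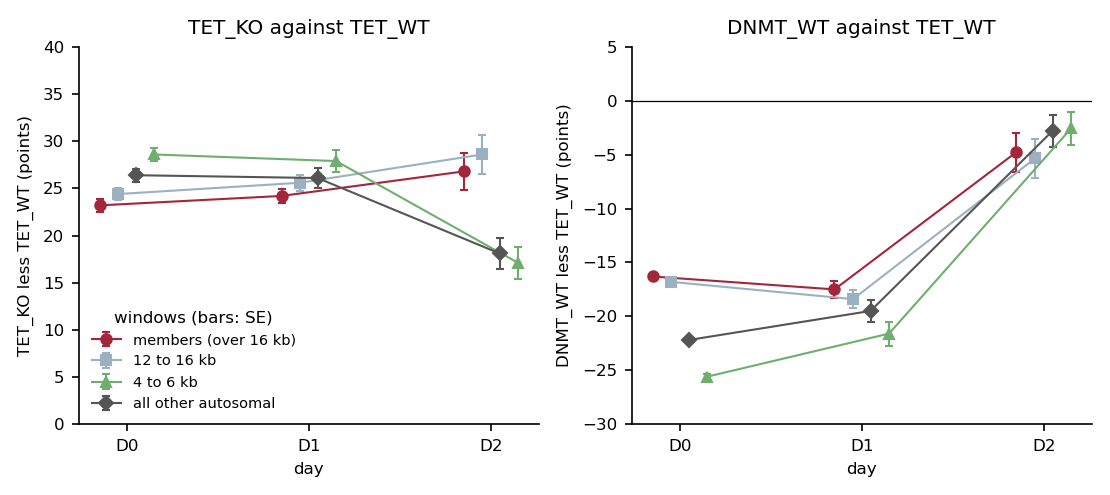
Difference from TET_WT in percentage points with its SE (vertical axis) by day, for TET_KO (left) and DNMT_WT (right), in the members and 3 other sets of autosomal windows. Members and windows of 12 to 16 kb run together and end at 26.8 and 28.6 points on D2 for TET_KO, where all other autosomal windows end at 18.1.

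Among members whose libraries did not overlap, the largest knockout difference on D2 was at chr8:21434547-21453633, 19087 bp long, which holds the defensin pseudogene Defa-ps18. Its libraries read 27.4, 28.9 and 33.3% in TET_WT and 76.8, 75.5 and 69.6% in TET_KO on D2. The difference was 44.1 ± 3.45 points (SE, limma adjusted p = 2.87e-12). Defensins are antimicrobial peptides whose genes form a cluster of near copies, so reads there may belong to several copies. The next, chr13:88428210-88445130, has no gene and lies 376342 bp from Edil3. It read 28.0, 32.0 and 31.2% in TET_WT and 72.1, 75.3 and 71.0% in TET_KO, a difference of 42.4 ± 1.77 points (SE, limma adjusted p = 3.03e-17). The other 3 of the top 5, on chromosomes 1, 9 and 1, also hold no gene and differ by 40.9 to 41.9 points. On D0 the largest, by the same rule, was in Atp6v0a2, which encodes a subunit of the proton pump of acidic organelles (chr5:124647445-124712255), from 23.6 to 68.8% (45.2 ± 3.17 points, SE, limma adjusted p = 1.10e-13).

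The gain from D0 to D2 in TET_KO was set against that in TET_WT, for the set means as a description with an SE and no test, and for single windows by limma. The member mean gained 22.6 ± 1.10 points (SE) in TET_KO and 19 ± 1.82 in TET_WT, and other autosomal windows gained 19 ± 0.925 and 27.3 ± 1.51. For the members the difference was 3.59 ± 2.12 points (SE), and for the other windows it was -8.32 ± 1.77. Members less other windows differed by 11.9 ± 0.442 points. These differences of set means were added after the values were known.

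By limma, 218 members (23.0%) gained more in TET_KO, against 2.50% of all tested windows, and 65 (6.86%) gained less, against 44.2%. Without replicate 2 of TET_WT on D2 the counts were 326 and 47. Length split the calls. Members of up to 20 kb had 209 of the higher calls and 21 of the lower ones, and those over 30 kb had 3 and 35. Members longer than 20 kb alone had 9 higher and 44 lower, and their mean difference was -3.82 points. The scale of the test also turned the split. With the adjusted p from a logit scale, and direction and size still in percentage points, 5 members were called higher and 41 lower. Windows of 12 to 16 kb had nearly the members' values, with 22.9% higher, 5.21% lower and a mean difference of 4.24 ± 2.14 points (SE). The members less those windows differed by -0.648 points in this gain, which was not tested. The knockout difference itself was a little larger in the shorter windows, at 28.6 points on D2 against 26.8 in the members.

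Of the 218 members with higher gains in TET_KO, 154 lay outside gene bodies, where 558 of all 948 members lie. The window in Prl7a2, a placental relative of prolactin (chr13:27649941-27666348), read 13.0, 12.4 and 11.1% in TET_WT on D0 and 19.2, 22.8 and 20.1% on D2. In TET_KO it went from 25.7, 24.0 and 27.4% to 54.0, 56.4 and 49.1%. The knockout thus started higher and also rose by more, a difference in gain of 18.9 ± 2.32 points (SE, limma adjusted p = 4.64e-07). The largest value, 23.1 ± 6.48 points (limma adjusted p = 0.00324), was at chr7:22637316-22655001 near the vomeronasal receptor gene Vmn1r155, where TET_WT on D2 read 35.7, 32.3 and 12.6% and so spread widely. At chr14:108480697-108497254, which lies 412734 bp from Slitrk1, a gene of synapse adhesion, the difference was 17.7 ± 2.35 points (limma adjusted p = 1.23e-06). Lower gains in TET_KO were led by chr4:130391093-130518870, at -28.8 ± 3.61 points (limma adjusted p = 6.14e-07). There TET_KO began at 66.5, 56.9 and 59.4% on D0, when TET_WT read 18.7, 17.4 and 23.0%, and ended at 76.4, 82.5 and 77.1%.

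The third comparison sets the second wild-type line against TET_WT. DNMT_WT was lower in the members, with a difference in the mean of -16.3 ± 0.257 points (SE) on D0 and -17.5 ± 0.760 on D1, and the lines drew close on D2, at -4.75 ± 1.81 points. Called lower were 846 members (89.2%) on D0 and 897 (94.6%) on D1, against 88.9 and 85.6% of all tested windows. On D2, 130 members (13.7%) were called lower and 6 (0.633%) higher, against 10.5 and 1.78%. Without replicate 2 of TET_WT on D2 the counts of that day were 67 lower and 11 higher. Centring turned the direction on D0 (324 higher, 30 lower) and D1 (75 higher, 26 lower), since the median window differed by more than the members did, and not on D2 (13 higher, 45 lower).

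Over the 3 days the member mean in DNMT_WT less that in TET_WT was -12.9 points, with an exact permutation p of 2.50e-04, adjusted to 4.00e-04 over 8 tests. Relative to the other windows it was 1.97 points higher, which did not pass (exact permutation p = 0.0503, adjusted 0.0575). In members of up to 30 kb it was 2.22 points (unadjusted exact permutation p = 0.0460). From D0 to D2 the members gained 11.6 ± 1.82 points (SE) more in DNMT_WT than in TET_WT, and the other windows 19.4 ± 1.53 more. In 469 members (49.5%) the gain was called higher, against 82.7% of all tested windows, while centring gave 20 higher and 453 lower. Members less other windows differed by -7.86 ± 0.404 points (SE) in this gain, with no test. The knockout and this line thus stand on opposite sides of TET_WT in how the members' gain compares with the rest, although both comparisons share the TET_WT libraries.

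Members called between the wild-type lines on D2 without overlap of the libraries include that over Olfr293, whose promoter is printed above. Its window (chr7:86646843-86663759) read 61.5, 67.8 and 60.1% in TET_WT and 35.0, 35.8 and 32.8% in DNMT_WT. The difference was -28.6 ± 1.99 points (SE, limma adjusted p = 4.16e-11). The opposite was seen at chr4:146972605-146997241 in Zfp993 and Rex2, which encode zinc finger proteins. DNMT_WT read 31.2, 29.3 and 33.4% there on D2, TET_WT 13.6, 14.3 and 11.9%, and TET_KO 19.2, 16.7 and 18.9%. The difference between the wild-type lines was 18.1 ± 2.39 points (SE, limma adjusted p = 1.79e-06). The window around the promoter of Gm3255 (chr17:14989072-15015212) was also higher in DNMT_WT on D2, at 59.4% against 47.0% (12.4 ± 2.66 points, limma adjusted p = 6.32e-04).

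The members were split by the genes they overlap, into classes described here by their values alone. The 558 members with no gene averaged 17.4% on D0 and 35.7% ± 3.08 (SD, n = 3) on D2 in TET_WT, and 64.1% ± 1.57 on D2 in TET_KO. The 41 members over olfactory receptor genes had 34.4% ± 2.95 and 62.7% ± 1.73 on D2, and the 22 over long neuronal genes had 33.7% ± 3.48 and 62.5% ± 1.40. These 3 classes lay close to each other in TET_WT on D2. All classes were read in the same libraries, so the SDs do not measure differences between classes, which were not tested. Members over vomeronasal receptor genes, 35 in number, were lower, with 29.8% ± 3.75 and 55.7% ± 1.75. The 278 members over other genes were the highest, with 42.0% ± 3.29 and 65.8% ± 1.48, and their gains in TET_KO and TET_WT differed by 0.0461 ± 2.22 points (SE).

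**Figure D5:**
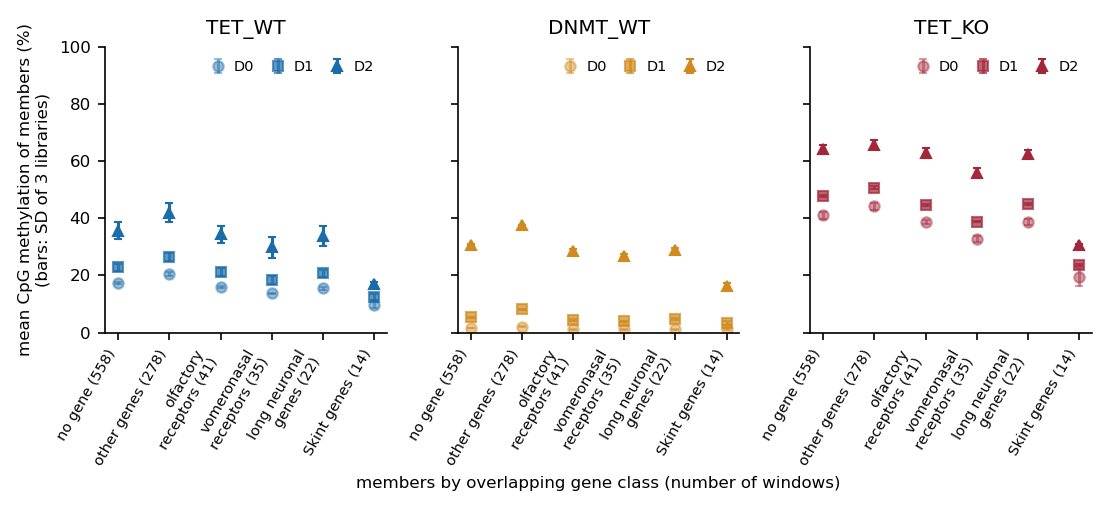
Mean methylation of the members in percent with the SD of 3 libraries (vertical axis), by the class of gene they overlap and the number of members in it (horizontal axis), for D0, D1 and D2 in each line. The Skint class is the lowest on D2 in all 3 lines, at 16.3% in DNMT_WT, 17.1% in TET_WT and 30.6% in TET_KO.

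The Skint genes had the lowest members of these classes. Their 14 members read 9.69% ± 1.05 (SD, n = 3) on D0, 12.6% ± 1.07 on D1 and 17.1% ± 0.718 on D2 in TET_WT, and 19.5% ± 3.25, 23.7% ± 0.439 and 30.6% ± 0.558 in TET_KO. The knockout level on D2 was thus under the TET_WT level of the members without genes on that day. Skint5 overlapped 8 members, more than any other gene. Their mean in TET_WT was 18, 13.8 and 15.4% on D2, and in TET_KO 28.5, 27.7 and 26.4%, so the lines did not overlap. One of them, chr4:113800527-113825048, was among the 5 lowest of all members, with 6.33, 7.12 and 9.06% in TET_WT on D2 and 15.3, 15.4 and 4.62% in TET_KO, where the lines did overlap. Skint6 (chr4:112778008-112820728) had 7.38% in TET_WT and 19.2% in TET_KO on D2, and the 2 members in Skint11 averaged 19.5 and 25.9%. Skint3 was the highest of those named, with 25.4 and 52.0%.

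Among the olfactory receptors, the member over Olfr243, with its CpG-free promoter, was low throughout, at 16.1% in TET_WT and 37.9% in TET_KO on D2. The members over Olfr1228 and Olfr1051 reached 68.5 and 68.7% in TET_KO on D2, with 29.9 and 32.7% in TET_WT. Of the vomeronasal receptors, Vmn2r102 overlapped 2 members, with 19.9% in TET_WT and 46.9% in TET_KO on D2, and Vmn2r20 had 33.5 and 61.8%. Receptor genes of the same family thus sat in members of quite different level.

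Long genes of neurons had members of their own. Cntnap5b, a cell adhesion gene of the neurexin family, overlapped 4, with 31.2% ± 4.11 (SD, n = 3) in TET_WT and 67.4% ± 1.84 in TET_KO on D2. Its relative Cntnap5c had 2 members at 29.7% in TET_WT but only 33.7% in TET_KO. Cntnap2 had 2 members at 44.3 and 63.9%. Grik2, a glutamate receptor gene, had 3 members at 33.9 and 68.4%, Fgf14, which acts on sodium channels, had 3 at 48.2 and 71.1%, and Nkain2 had 2 at 30.9 and 62.1%. Among these genes Cntnap5c thus differed least between the lines. The antigen receptor loci Igk and Tcra also held members, 3 and 2 in number, with 30.7 and 33.1% in TET_WT and 57.4 and 54.4% in TET_KO.

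Members crowded in a few places. The 2 Mb bin with the most, from 112 to 114 Mb on chromosome 4, held 18, over and around the Skint genes, and averaged 21.3% ± 0.931 (SD, n = 3) in TET_WT and 34.8% ± 0.954 in TET_KO on D2. The next, from 92 to 94 Mb on chromosome 17, held 13 and no gene, with Adcyap1, a neuropeptide gene, as the nearest, and averaged 44.0% ± 1.79 and 68.8% ± 2.12. On the same chromosome, the bin from 18 to 20 Mb held 11 among Vmn2r genes, with 26.5% ± 4.34 and 56.3% ± 1.32. The bin around Cntnap5b on chromosome 1, from 100 to 102 Mb, held 9, with 35.3% ± 3.85 and 69.4% ± 2.41. In the knockout the Skint bin was thus the lowest of these 4.

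The lowest, highest and longest members show the limits of the set. The lowest member, chr12:55197149-55231053, is 33905 bp long, contains the CpG-dense promoter of Srp54c printed above, and read 0, 0 and 1.89% in TET_WT on D0 and 0, 0 and 1.72% on D2. In TET_KO on D2 it read 1.01, 0 and 5.0%. It stayed under 6% in every library, whereas the member directly next to it, chr12:55231105-55256618, in the body of Srp54c, rose from 41.9, 44.7 and 48.2% to 77.6, 79.3 and 77.4% in TET_WT. The highest member, chr2:177609183-177714472, overlaps the predicted genes Gm52573 and Gm14324 and read 61.4, 58.4 and 61.7% in TET_WT on D0 and 85.5, 91.4 and 86.3% on D2. The longest, chr5:15060661-15461289, spans 400629 bp without an annotated gene and averaged 27.7% on D0 and 44.7% on D2 in TET_WT. The third longest, chr4:60844807-61157419, lies near Mup22 in the cluster of major urinary protein genes and went from 11.6 to 37.5%. The table gives no read counts, so how many reads or CpGs stand behind each of these values is unknown, and the part of multiple mapping in them was not tested.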

How the data were processed

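Per the labels, genomic DNA was sheared, ligated to methylated adapters, bisulfite converted and amplified. Per the submitters' processing notes, the tools were Trim Galore 0.6.6, cutadapt 2.3 and Bismark 0.23.0, with GRCm38. The authors deposited the methylation of each window as a percent per library, from 0 to 100. The way windows were filled, the meaning of 100 (sites, or cytosines on either strand) and any coverage filter are not given in the sources used here. Without counts in the table, no depth can be stated and no interval computed.

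Percentages were used as deposited. Windows complete in all 27 libraries (444250 nuclear) were fitted with limma 3.58.1 in R 4.3.3 (lmFit and trended eBayes), as 9 group means with 18 residual degrees of freedom. Member means, and member means less those of other autosomal windows, were tested by exact permutation within lines or days. Differences in gain between lines were tested per window only, and for set means carry an SE. Other steps ran in Python 3.11.15 with pandas 2.3.3, numpy 2.4.6, matplotlib 3.10.9 and scipy 1.17.1. The fit was tested on simulated data. Deviations of same-numbered libraries from their group means correlated at -0.0549 to 0.0570 in 108 pairs, and the numbers were therefore not treated as pairing the libraries. Promoters came from RefSeq (GRCm38.p6).

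The members, gene lists and comparisons were chosen with earlier results of these data known. Named are the 3 longest members, the 3 windows on either side of the length limit, the 5 lowest and 5 highest members, up to 5 called members per contrast and direction with the largest difference and no overlap of libraries (gain contrasts without the last condition), genes over or nearest to these, the 20 genes overlapping most members, up to 4 genes per list, and genes of the 5 bins of 2 Mb with most members. Alternatives were centring, a minimum of 20 points, adjusted p from a logit scale with differences in points, no trend, and only the groups compared. Others were a replicate block, other length limits, medians, other comparison windows, and leaving out libraries. X and Y windows, the Dnmt knockout line and embryoid bodies were not analysed here.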

Additional observations from a re-analysis of the deposited data

Results flagged for a closer look

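The gain from D0 to D2 differed between the lines. Members less the other autosomal windows changed by 3.56 points in TET_KO and by -8.36 in TET_WT, opposite ways for every pairing of a D2 with a D0 library, a difference of 11.9 points that was not tested. Among single members, the limma test of the difference in gain called 218 (23.0%) higher and 65 (6.86%) lower in TET_KO than in TET_WT. Of all tested windows, 2.50% were called higher and 44.2% lower. The split turned when the adjusted p came from a logit scale and the difference stayed in points, with 5 higher and 41 lower. It also turned in members over 20 kb, with 9 and 44. In DNMT_WT the gain of 469 members (49.5%) was called higher than in TET_WT, against 82.7% of all tested windows. Centring each library on its median gave 20 higher and 453 lower. The counts with a logit scale, over 20 kb and with centring come without the share over all tested windows. Both comparisons share the TET_WT libraries.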

How the results depend on the processing

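Leaving out 1 library kept the direction of every mean and share tested here. It moved the share of members called by over 1.5 times in 3 cases, where the range was 4.96 to 9.18% for D0 to D1 in TET_WT, 6.12 to 13.2% for D0 to D1 in TET_KO and 8.23 to 18.6% for DNMT_WT against TET_WT on D2. In tests over 3 lines or 3 days, a replicate number was left out of all groups at once, which leaves fewer arrangements. The difference of members from other windows from D1 to D2 over 3 lines then ranged from -3.97 to -3.69 points. It no longer passed, whichever replicate number was left out. With a replicate block this difference was -3.86 points (exact permutation p = 0.102), and no other tested mean or share of calls crossed its threshold under the block. The settings without a trend and with only the groups compared left each share within 1.5 times its value.

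Centring on library medians changed most shares of members called, which are given here without the share over all tested windows. The steps D0 to D1 and D1 to D2 gave 0.633 and 48.8% in TET_WT, 2.11 and 72.9% in DNMT_WT, both turned to lower calls, and 0.633% (turned) and 3.48% in TET_KO. TET_KO against TET_WT gave 33.1 and 27.5% on D0 and D1, both turned, and 40.5% on D2. DNMT_WT against TET_WT gave 37.3 and 10.7%, both turned, and 6.12%. The gains gave 69.5% for TET_KO and 49.9%, turned, for DNMT_WT. A minimum of 20 points gave 0.105 and 14.7% in TET_WT, 0.949% for D0 to D1 in DNMT_WT, 0 and 14.5% in TET_KO, and 21.6, 26.3 and 0.844% for DNMT_WT against TET_WT. The gains then gave 0.844% for TET_KO, with more lower than higher calls, and 12.2% for DNMT_WT. Adjusted p from a logit scale, with differences still in points, gave 4.85% for the TET_KO gain, mostly lower.

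From D0 to D1, a length limit of 12000 bp gave 3.89% in TET_WT. A limit of 20000 bp gave 23.2% in TET_WT, 31.5% in DNMT_WT and 14.9% in TET_KO, and, for the TET_KO gain, 31.5% with more lower calls and a mean difference of -3.82 points. Members of up to 30000 bp gave 3.77% in TET_WT and 5.65% in DNMT_WT, and members outside gene bodies 5.38% in DNMT_WT. For members less other windows, TET_KO less TET_WT over 3 days became -0.0556 with medians, -1.52 with the 20000 bp limit and -1.48 against windows of 12000 to 16000 bp. DNMT_WT less TET_WT passed with medians (3.12), members of up to 30000 bp (2.22), and against windows of 4000 to 6000 bp (3.71) or 12000 to 16000 bp (0.679). Against that last class signs also turned for the rise D0 to D1 over 3 lines (0.0156) and in DNMT_WT (0.372), D1 to D2 in TET_KO (-0.435), D2 of TET_KO (-1.83) and of DNMT_WT (0.589) against TET_WT, and the gains of TET_KO (-0.648) and DNMT_WT (0.0732). The untested gain difference of members less other windows, 11.9 points for TET_KO and -7.86 for DNMT_WT, became 16.3 and -10.3 with medians, 4.48 and -3.10 with the 20000 bp limit, 13.1 and -8.64 for members of up to 30000 bp, and 15.1 and -11.4 against windows of 4000 to 6000 bp. For TET_KO it was 12.9 with the 12000 bp limit and 13.2 outside gene bodies, and the DNMT_WT member mean itself gained 16.3 points more with the 20000 bp limit. The cause of these changes was not tested, except that another limit or class holds other windows.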
